A study of Mus musculus with 3 samples.

Results

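Cells that divide copy their DNA in S phase and part the copies in mitosis, and each step has its own genes. The 48 genes described here cover both steps: 10 genes of origin licensing and the replicative helicase, 4 of nucleotide supply and the sliding clamp, 6 of the passage from G1 to S, 10 cyclins, kinases and partners of the S, G2 and M phases, 3 of the spindle checkpoint, 9 of the spindle, centromere and cytokinesis, 2 chromosome proteins and 4 transcription factors. They were taken from a list of known cell cycle genes and found on the arrays through the RefSeq accession of each probe. All 48 were matched, by 64 probes, among 20546 genes named in all. Each gene is given by the probe with the highest mean over the 3 arrays, among those not marked as non-uniform or outlier on any array.

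The study hybridised RNA of 3 groups of female mice to Agilent arrays, with 1 array and 1 dye for each group. The SiO2 spleen came from spleens treated with SiO2 (silica) and is the control named in the series design. The SiO2-3TF-3C spleen had in addition received 3TF-3C, a treatment that is not spelled out, and the design calls such spleens hepatized. Both kinds of spleen were collected on day 82, and silica is shared by both. Normal liver tissue, with no treatment or collection day in the labels, served as a positive control. Per the design text, 5 samples went into each pool, and it does not say whether this covers the liver. The sources used here give no strain or age. Each group has 1 array, so no group has a replicate, nothing could be tested between groups, and precision is limited by this number. Pooled samples and whole tissue carry a further limit: a change in the number of dividing cells and a change in RNA per cell cannot be told apart.

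Before S phase, the origin recognition complex, Cdc6 and Cdt1 load the Mcm2 to Mcm7 helicase onto DNA, and Cdc45 joins the helicase when origins fire. Cyclin B with Cdk1 drives entry into mitosis, and the anaphase-promoting complex, switched on by Cdc20, ends it. E2F factors act on many replication genes in late G1, while B-Myb (Mybl2) and Foxm1 act on many mitotic genes, whose promoters often hold a cell cycle homology region (CHR) near CCAAT boxes. In the adult mouse spleen, dividing cells include erythroblasts of the red pulp, granulocyte precursors and activated B cells. Hepatocytes of the resting adult liver rarely divide.

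Replication and mitotic genes differ in how often they hold these letters, so 5 promoter windows are printed before the values. RefSeq promoter windows of 300 bases (250 before to 50 after the start, GRCm38.p6) were matched for 38 of the 48 genes. The letters searched, on both strands, were TTTGAA and TTCGAA for the CHR, CCAAT for the CCAAT box, and TTTCCCGC, TTTGGCGC, TTTCGCGC and TTTGCCGC for E2F. Cdc6 and Mki67 are shown because they had the largest differences between the 2 spleens among the listed genes, Ccnb2 because it had the lowest value in liver relative to SiO2 spleen, Mcm6 for its E2F letters and Cdc20 as the activator of the anaphase-promoting complex. They were chosen after the values were seen, as windows with E2F letters or with CHR and CCAAT letters. Other genes did not follow this split: Ccnb1, Birc5, Nusap1, Mad2l1 and Cenpe held no CHR letters, and Mcm2 held CHR but no E2F letters. Capitals mark the matched letters, read 5′ to 3′ on the strand of the gene, and ATTGG is CCAAT on the other strand. The window of Mcm6 is chr1:128359656-128359955 (minus strand), of Cdc6 chr11:98907901-98908200 (plus strand), of Mki67 chr7:135716330-135716629 (minus strand), of Ccnb2 chr9:70421505-70421804 (minus strand) and of Cdc20 chr4:118437294-118437593 (minus strand). In the longest run of capitals of Mcm6, TTTGGCGC overlaps TTTCGCGC on the other strand.
Mcm6: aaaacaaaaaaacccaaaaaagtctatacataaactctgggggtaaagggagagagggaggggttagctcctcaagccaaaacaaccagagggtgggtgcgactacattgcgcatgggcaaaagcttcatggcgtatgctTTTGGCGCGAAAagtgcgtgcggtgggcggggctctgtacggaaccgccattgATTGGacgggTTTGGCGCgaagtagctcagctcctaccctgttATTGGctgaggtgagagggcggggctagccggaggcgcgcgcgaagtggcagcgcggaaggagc
Cdc6: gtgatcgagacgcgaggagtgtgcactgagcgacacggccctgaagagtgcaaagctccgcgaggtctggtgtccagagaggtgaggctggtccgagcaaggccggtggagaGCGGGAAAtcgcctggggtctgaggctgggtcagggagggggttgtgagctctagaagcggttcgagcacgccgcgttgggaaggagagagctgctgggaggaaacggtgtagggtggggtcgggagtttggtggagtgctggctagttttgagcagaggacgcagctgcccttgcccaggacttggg
Mki67: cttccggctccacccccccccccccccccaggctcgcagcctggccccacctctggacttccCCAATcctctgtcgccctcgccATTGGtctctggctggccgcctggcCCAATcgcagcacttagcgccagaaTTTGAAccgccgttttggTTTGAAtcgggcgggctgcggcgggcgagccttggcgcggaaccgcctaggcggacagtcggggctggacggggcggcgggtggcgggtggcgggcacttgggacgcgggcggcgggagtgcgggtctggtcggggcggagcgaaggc
Ccnb2: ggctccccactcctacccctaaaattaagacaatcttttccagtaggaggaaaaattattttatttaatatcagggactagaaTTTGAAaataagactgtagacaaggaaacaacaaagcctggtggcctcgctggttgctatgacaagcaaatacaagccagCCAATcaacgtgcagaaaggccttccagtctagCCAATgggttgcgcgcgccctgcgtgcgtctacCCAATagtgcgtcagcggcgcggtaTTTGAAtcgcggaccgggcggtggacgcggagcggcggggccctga
Cdc20: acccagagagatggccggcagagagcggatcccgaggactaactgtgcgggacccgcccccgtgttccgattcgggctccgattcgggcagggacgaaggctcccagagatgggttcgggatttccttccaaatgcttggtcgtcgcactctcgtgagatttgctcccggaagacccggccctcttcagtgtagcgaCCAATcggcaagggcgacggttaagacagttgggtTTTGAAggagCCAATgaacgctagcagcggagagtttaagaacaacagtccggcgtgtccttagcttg

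CHR letters stood in 14 of 19 matched mitotic genes (73.7%), in 2 of 8 matched replication genes of the Mcm, Orc and Rrm families (25%) and in 21.7% of all 27025 genes of the promoter table. CHR and CCAAT letters together stood in the same 73.7% of the mitotic genes and in 8.61% of all genes. E2F letters ran the other way: 1 of 19 mitotic genes (5.26%), 5 of 8 replication genes (62.5%) and 2.60% of all genes held them. CCAAT letters alone were common in both, at 84.2% of the mitotic and 100% of the replication genes against 41.1% of all genes. A match is a description of letters in the window, and binding was not measured.

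Values are log2 fluorescence minus the 75th percentile of the same array, called levels here, and a level of 0 is the level of that percentile. Probes differ in their response, so a level is compared between arrays and never between genes. The value after ± is the technical error of a difference, combined from the signal errors that the scanner software gives for the 2 spots. It does not cover differences between animals. Its median over the division genes was 0.20 in each comparison, with larger values for dim genes. A difference past 2 technical errors thus passes a nearly fixed cutoff, not a spread measured for each gene. Replicate spots of a probe had median log2 standard deviations of 0.064, 0.066 and 0.083 on the arrays of SiO2 spleen, SiO2-3TF-3C spleen and liver. The scanner software marked spots as well above background, and their share was 79.9% in the SiO2 spleen, 81.3% in the SiO2-3TF-3C spleen and 77.2% in liver, and 0 spots were saturated. Of the 48 genes, 47 were well above background on all 3 arrays, and Ccne2 was not well above background in liver. All 16 hepatocyte markers exceeded the SiO2 spleen by at least 2-fold both after 3TF-3C and in liver, by medians of 8.26 and 10.90 on the log2 scale. In these medians 4 of the 16 (Ttr, Apoa1, Fgg and Cyp3a11) enter as lower bounds, because the SiO2 spleen array did not show them well above background. The array labelled normal liver also carried genes of other tissue: all 8 spleen regulators and stroma genes, all 12 B cell genes and all 14 T and NK cell genes were well above background on it. The spleen regulators Tlx1, Nkx2-5 and Nkx2-3 differed there from the SiO2 spleen by -1.66, -1.22 and -1.25. What part this has in the liver values below was not tested.

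**Figure D1:**
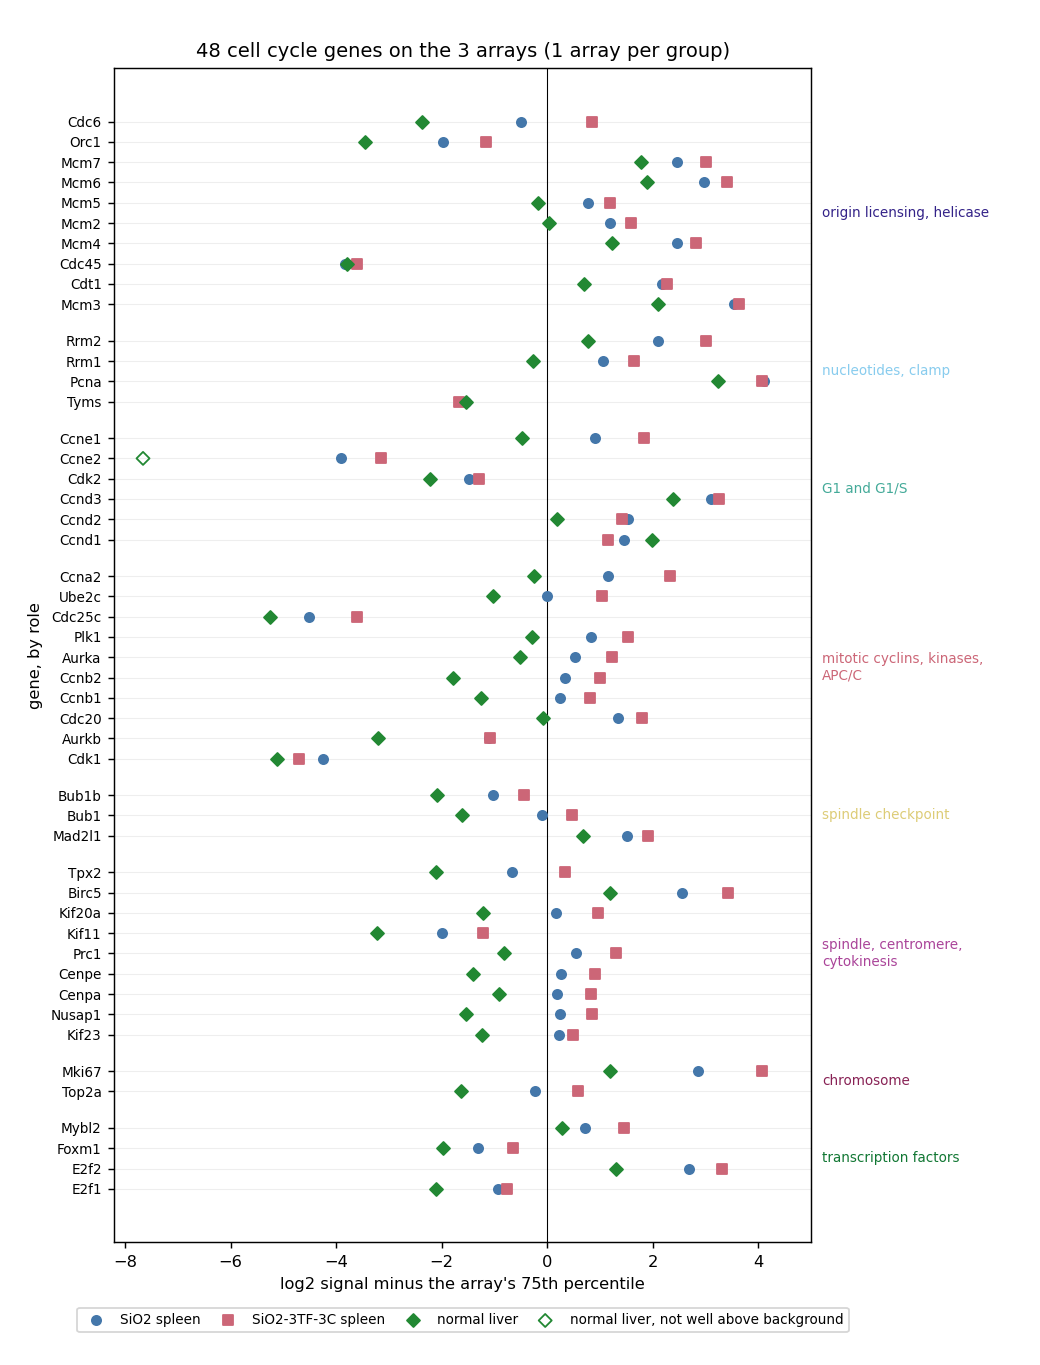
Levels of the 48 genes (y axis, grouped by role and ordered by the difference between the spleens) on the 3 arrays (x axis, log2 signal minus the array's 75th percentile). Each point is 1 array, and the open diamond marks Ccne2, not well above background in liver. In 42 genes the SiO2-3TF-3C spleen is to the right of the SiO2 spleen and liver is to the left of both. How many of all genes share this order was not counted.

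The first comparison asks how the genes of division differed after 3TF-3C in spleens that had all received silica. Most were higher by less than 2-fold. By the size rule used here, 2-fold or more, 5 of 48 genes were higher after 3TF-3C and 0 lower, where 5.24% of the 17640 genes measured were higher by that rule and 1.39% lower. The 5 were Cdc6, Mki67, Ccna2, Ube2c and Tpx2. Quantile normalization raised the number higher to 8, with 5.40% of all genes higher by that setting. Counting every size, 43 of 48 had a difference above 0, against 34.4% of all genes. Their median difference was 0.60, with quartiles of 0.25 and 0.78, where all genes had a median of -0.15 and quartiles of -0.37 and 0.11. By more than 2 technical errors 32 genes were higher and 0 lower, and the other 16 lay within them, where 9.99% of the 16783 genes well above background on both spleen arrays were higher by that measure and 18.8% lower.

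The largest difference between the spleens in the whole set belonged to a single gene of origin licensing, Cdc6. Cdc6, which helps load the helicase, had levels of -0.50 in the SiO2 spleen, 0.85 in the SiO2-3TF-3C spleen and -2.37 in liver. Between the spleens it differed 2.56-fold upward (1.36 ± 0.20), at percentile 96.0 of all genes measured. Cdt1, the other loader, had levels of 2.18, 2.27 and 0.69 in the same order and differed between the spleens by 0.09 ± 0.20, within its technical error. Orc1, the largest subunit of the origin recognition complex, stood at -1.97, -1.15 and -3.44, with a difference between the spleens of 0.82 ± 0.20. The loaders thus differed among themselves, Cdc6 and Orc1 lying beyond 2 technical errors and Cdt1 not.

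The 6 Mcm genes, which encode the helicase ring, lay closer together. Mcm7 differed by 0.55 between the spleens, Mcm6 by 0.43, Mcm5 by 0.43, Mcm2 by 0.40, Mcm4 by 0.35 and Mcm3 by 0.08, each ± 0.20. Mcm6 had levels of 2.97, 3.40 and 1.90. None reached 2-fold, and Mcm2, Mcm3 and Mcm4 lay within 2 technical errors of 0. Cdc45 was dim, at -3.83, -3.61 and -3.79, and its 3 levels lay within 2 technical errors of each other. Over all 10 genes of licensing and the helicase the median was 0.41, and 10 of 10 were above 0.

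Of the 4 genes of nucleotide supply and the clamp, the 2 subunits of ribonucleotide reductase exceeded the SiO2 spleen after 3TF-3C and the other two did not. Rrm2, the subunit that limits dNTP supply in S phase, had levels of 2.10 in the SiO2 spleen, 3.01 in the SiO2-3TF-3C spleen and 0.76 in liver, a difference between the spleens of 0.91 ± 0.20. Rrm1, the large subunit, stood at 1.06, 1.65 and -0.27, a difference of 0.59 ± 0.20. Pcna, the sliding clamp of the polymerases, stood at 4.10, 4.06 and 3.23. Tyms, thymidylate synthase, stood at -1.55, -1.66 and -1.54, so that its 3 levels lay within 2 technical errors. Between the spleens Pcna differed by -0.04 ± 0.20, with a sign that changed with the processing, and Tyms by -0.12 ± 0.20.

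The values of the G1 cyclins depended in part on the probe. Ccne1, the partner of Cdk2 at the entry to S phase, had levels of 0.91, 1.83 and -0.48 and was 1.89-fold above the SiO2 spleen after 3TF-3C (0.92 ± 0.20). A dimmer probe of Ccne1 gave 0.42. Ccne2 stood at -3.91 and -3.14 in the spleens, a difference of 0.77 ± 0.22. The D-type cyclins, which bind Cdk4 and Cdk6 in response to growth signals, had values near 0 or below it by their brightest probes: Ccnd3 at 0.15, Ccnd2 at -0.13 and Ccnd1 at -0.31, each ± 0.20. A dimmer probe of Ccnd3 gave 0.42, the same as that of Ccne1. Cdk2 itself differed by 0.19 ± 0.20. Ccnd1 was the only one of the 48 with a difference in liver above its technical error and above 0, at levels of 1.46 in the SiO2 spleen, 1.15 in the SiO2-3TF-3C spleen and 1.98 in liver.

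Mitotic cyclins, kinases and the partners of the anaphase-promoting complex had a median difference of 0.68 between the spleens, and 9 of 10 were above 0. Ccna2, the cyclin of S phase and G2, had levels of 1.15 in the SiO2 spleen, 2.32 in the SiO2-3TF-3C spleen and -0.24 in liver. Its difference between the spleens was 2.26-fold (1.17 ± 0.20). Ube2c, the ubiquitin-conjugating enzyme of the anaphase-promoting complex, stood at -0.00, 1.04 and -1.04, a difference of 1.04 ± 0.20 between the spleens. Ccnb2, a cyclin of mitosis proper, stood at 0.33, 0.996 and -1.78. Ccnb1, the other one, stood at 0.25, 0.81 and -1.25, a difference between the spleens of 0.56 by the probe used. Its 2 dimmer probes gave 1.20 and 1.03, past 2-fold, so the size for Ccnb1 depends on the probe. The kinases Plk1 and Aurka, which act on centrosomes and the spindle, differed between the spleens by 0.70 ± 0.20 and 0.69 ± 0.20. Cdc25c, the phosphatase that activates Cdk1, was dim and differed by 0.90 ± 0.24, and Cdc20 differed by 0.45 ± 0.20.

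Aurkb, and Cdk1 by the probe used, did not follow the other kinases. Aurkb, the kinase of the chromosomal passenger complex, had levels of -1.11 and -1.09 in the spleens, a difference of 0.01 ± 0.20 whose sign changed with the processing, and -3.20 in liver. Cdk1, the kinase of mitotic entry, rests on a dim probe, because its 2 brighter probes were marked as non-uniform on the SiO2-3TF-3C spleen array. The probe kept had intensities of 29.8 in the SiO2 spleen, 19.9 in the SiO2-3TF-3C spleen and 11.2 in liver, a difference between the spleens of -0.44 ± 0.25. The brightest probe left out had intensities of 1093, 1469 and 352 in the same order, a difference of 0.57, and the other one differed by 0.37. The sign of Cdk1 between the spleens thus depends on the probe.

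All 3 spindle checkpoint genes, whose proteins hold back anaphase until chromosomes are attached, were above 0 between the spleens, with a median of 0.56. Bub1b stood at -1.02, -0.43 and -2.08 on the arrays of SiO2 spleen, SiO2-3TF-3C spleen and liver. It differed by 0.59 ± 0.20, Bub1 by 0.56 ± 0.20 and Mad2l1 by 0.40 ± 0.20.

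The 9 genes of the spindle, centromere and cytokinesis were all above 0 between the spleens, with a median of 0.75. Tpx2, which activates Aurka on the spindle, had levels of -0.67 in the SiO2 spleen, 0.34 in the SiO2-3TF-3C spleen and -2.12 in liver and exceeded the SiO2 spleen 2.01-fold after 3TF-3C (1.01 ± 0.20). A dimmer probe of Tpx2 gave a difference of 0.40, and the mean over both probes or normexp background correction took the gene below 2-fold. Birc5 (survivin), a subunit of the chromosomal passenger complex, stood at 2.56, 3.42 and 1.19, a difference of 0.86 ± 0.20, and its 2 dimmer probes gave 1.12 and 1.04. The motors Kif20a, of cytokinesis, and Kif11, which pushes spindle poles apart, differed by 0.80 and 0.77. Prc1, which bundles the microtubules of the midzone, differed by 0.75. The kinetochore motor Cenpe differed by 0.66, the centromeric histone Cenpa by 0.63 and the spindle protein Nusap1 by 0.61. Kif23, the midzone motor, had the lowest value of this group at 0.26 ± 0.20.

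Both chromosome proteins were higher in the SiO2-3TF-3C spleen. Mki67 encodes Ki-67, the antigen commonly used to stain cycling cells. Its levels were 2.86 in the SiO2 spleen, 4.06 in the SiO2-3TF-3C spleen and 1.18 in liver, a difference between the spleens of 1.21 ± 0.20 or 2.31-fold. Its other probe gave 0.89, below 2-fold. Top2a, the topoisomerase that untangles sister chromosomes, stood at -0.24, 0.58 and -1.64, a difference of 0.82 ± 0.20.

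Of the 4 transcription factors 3 lay beyond 2 technical errors between the spleens. Mybl2 stood at 0.71, 1.45 and 0.27, a difference of 0.74 ± 0.20. Foxm1 differed by 0.66 ± 0.20 by its brighter probe and by -0.06 by another probe close to background. E2f2 stood at 2.68, 3.30 and 1.30 and differed by 0.63 ± 0.20. E2f1, the founding member of its family, differed by 0.18 ± 0.20, within its technical error.

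**Figure D2:**
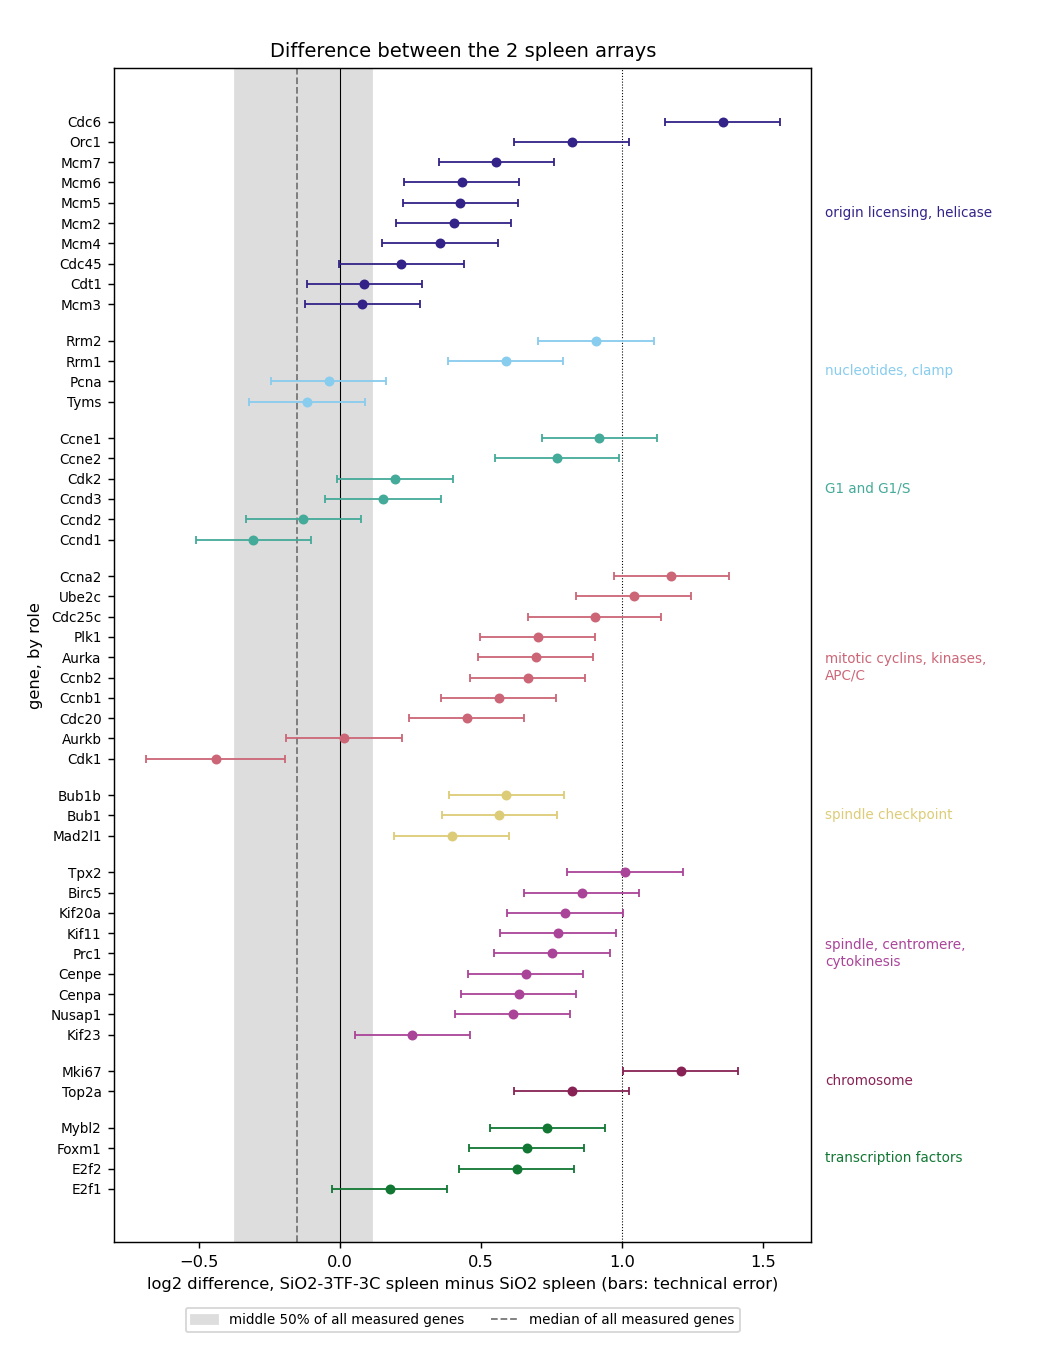
Difference between the SiO2-3TF-3C and SiO2 spleen arrays (x axis, log2) for the 48 genes by role (y axis). Points are differences, bars the technical error, the grey band the middle 50% of all measured genes (-0.37 to 0.11), the dashed line their median and the dotted line 2-fold. In every role except nucleotides and the clamp, most genes lie to the right of the band. Cdk1 (by its dim probe), Ccnd1, Ccnd2, Tyms and Pcna lie below 0.

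The rule for these genes also sets replication against mitosis. The 9 replication genes (Mcm, Orc and Rrm) had a median difference between the spleens of 0.43, with a range of 0.08 to 0.91. The 24 mitotic genes are those of the cyclin and kinase, spindle checkpoint, spindle and chromosome protein roles. Ccna2, the cyclin of S phase and G2, is among them. They had a median of 0.68, with a range of -0.44 (Cdk1, by its dim probe) to 1.21 (Mki67). The groups overlapped widely: 20 of 24 mitotic genes lay above the replication median and 4 above the highest replication gene, Rrm2. With Cdc6, Cdc45, Cdt1, Pcna and Tyms added, the 14 replication genes had a median of 0.41. The gap of 0.25 between the medians was not tested, and it was 0.15 with normexp background correction and 0.17 with quantile normalization.

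Wider lists of the same pathways gave a similar gap. For scale, 5.24% of all genes measured were higher between the spleens by 2-fold or more, 1.39% were lower and 34.4% were above 0. Of 46 other replication genes 0 passed 2-fold between the spleens in either direction, 35 were above 0, and the median was 0.25. The highest were the histone chaperone Asf1b at 0.92, Uhrf1, which keeps DNA methylation through replication, at 0.85, the chromatin assembly subunit Chaf1a at 0.77 and Clspn, an adaptor of the replication checkpoint, at 0.77. Of 65 other mitotic genes 5 were higher by 2-fold or more (0 with normexp correction, 1 of 37 in the authors' deposited table) and 0 lower, 61 were above 0, and the median was 0.52. They were led by the centrosomal kinase Nek2 at 1.11, the cytokinesis scaffold Anln at 1.05, Ckap2 at 1.03 and Depdc1a at 1.002. The medians of the 2 wider lists were 0.27 apart.

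Inhibitors of the cell cycle did not share this lean. Of 28 measured, 1 was higher between the spleens by 2-fold or more, 1 was lower, 12 were above 0, and the median was -0.05, which turned to 0.054 in the authors' deposited table and to 0.056 with quantile normalization. Cdkn1c (p57), an inhibitor of cyclin-dependent kinases, had levels of 1.81 in the SiO2 spleen, 0.15 in the SiO2-3TF-3C spleen and 0.34 in liver, a difference between the spleens of -1.65 ± 0.20. Of the other Cdkn1 genes, Cdkn1a (p21) differed by -0.70 ± 0.21 and Cdkn1b (p27) by -0.35 ± 0.20. Cdkn1b thus lay between the quartiles of all genes, -0.37 and 0.11. Trp53, which acts on Cdkn1a, differed by -0.45 ± 0.21. Cdkn1a and Trp53 were dim, with levels of -2.86 and -2.96 in the SiO2 spleen. Over all settings Cdkn1a ran from -0.71 to -0.31 and Trp53 from -0.45 to -0.18. The repressors E2f8 and E2f7, which are themselves produced in S phase, differed by 1.20 ± 0.20 and 0.87 ± 0.20. Of 13 other G1 regulators 0 passed 2-fold in either direction and the median was -0.06, or 0.015 with probes of a gene averaged. Among these, the E2F partners Tfdp2 and Tfdp1 differed by 0.81 and 0.60, the ubiquitin ligase subunit Fbxw7, which marks cyclin E for breakdown, by -0.47 and Cdk6 by 0.41 ± 0.31.

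**Figure D3:**
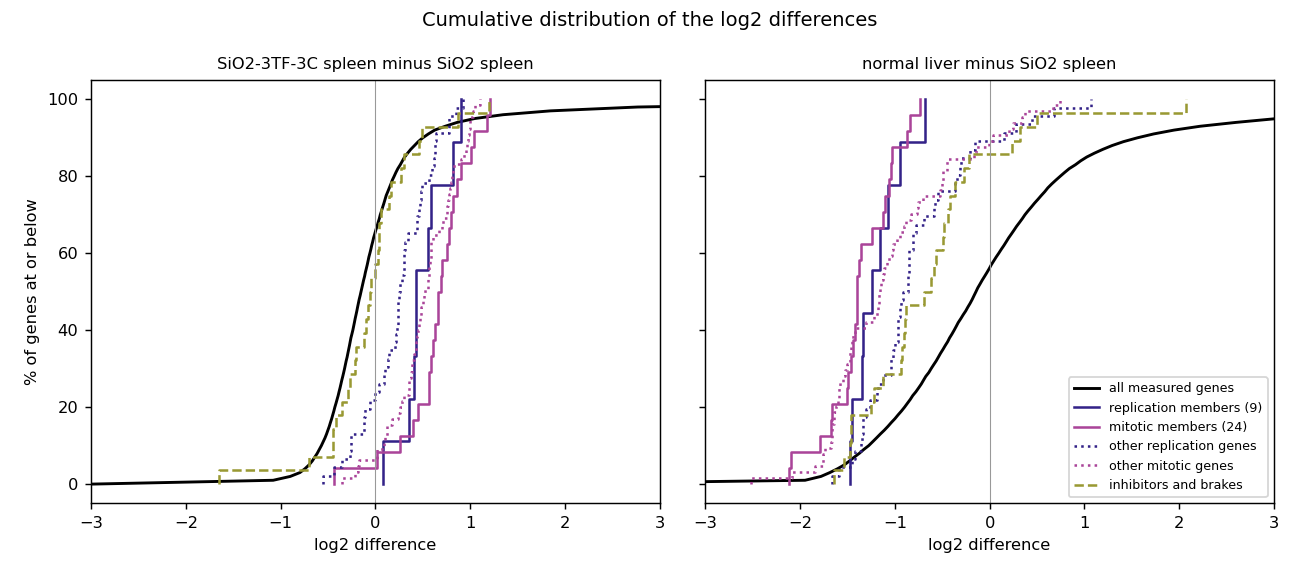
Cumulative share of genes (y axis, %) at or below a log2 difference (x axis) between the spleens (left) and between liver and SiO2 spleen (right). On the left the mitotic lists (medians 0.68 and 0.52) lie to the right of the replication lists (0.43 and 0.25), and the inhibitors (-0.05) lie near all genes. On the right all these lists lie to the left of all genes (median -0.14).

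Marker genes of other cells moved in the same comparison, in which 5.24% of all genes measured were higher by 2-fold or more and 1.39% lower. Of 21 erythroblast and red cell genes 17 were higher between the spleens by 2-fold or more, with a median difference of 1.55, and their summed scaled intensity was 100.9 in the SiO2 spleen, 159.8 in the SiO2-3TF-3C spleen and 90.2 in liver. Klf1, a transcription factor of erythroblasts, differed by 2.32 ± 0.20. Granulocyte and precursor genes passed 2-fold upward for 6 of 15, with a median of 0.78 and sums of 149.7, 185.6 and 83.2. Plasma cell genes did so for 2 of 8 (median 0.48), with sums of 64.9, 90.3 and 62.9. Of the plasma cell genes, Sdc1, which differed by 1.65 between the spleens, was 16.4-fold higher in liver relative to SiO2 spleen, and Xbp1, at 0.49 between the spleens, differed by 0.92 in that comparison. The part of liver tissue in these values was not tested.

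The other marker lists of blood and spleen had medians at or below 0 between the spleens. None of 9 germinal centre B cell genes passed 2-fold (0 in either direction, median -0.00), nor did any of 7 stem and progenitor genes (median -0.37). The median was -0.60 for 12 B cell genes, of which 1 was at least 2-fold lower, and -0.54 for 14 T and NK cell genes, of which 0 were. Megakaryocyte, macrophage and fibroblast genes had medians of -0.01, -0.13 and -0.19. The 8 spleen regulators and stroma genes were all below 0, with a median of -0.38, and 0 passed 2-fold. Every marker of these 11 lists was well above background on both spleen arrays. The part of these cells in the values of the division genes was not tested. Per the labels, red cells were lysed and globin RNA was depleted before labelling, and no globin gene is in the erythroid list.

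**Figure D4:**
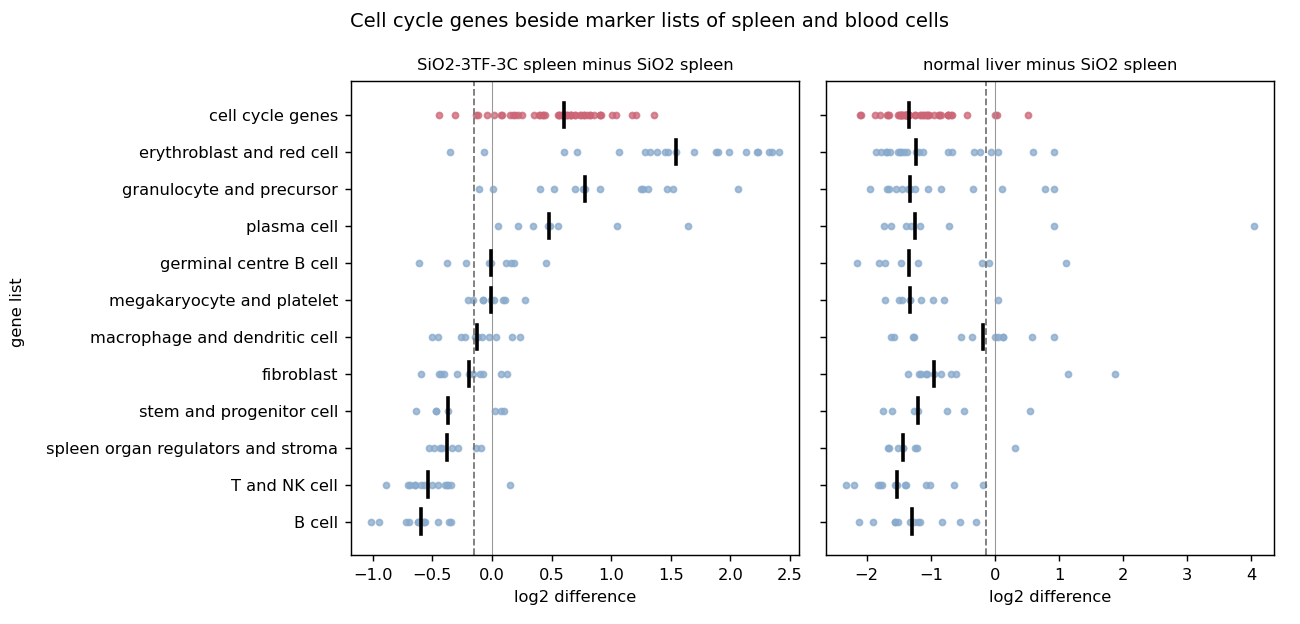
Log2 differences (x axis) of the 48 cell cycle genes and of 11 marker lists (y axis) between the spleens (left) and between liver and SiO2 spleen (right). Points are genes, black bars list medians and dashed lines the median of all genes. On the left the erythroid (1.55), granulocyte (0.78) and cell cycle (0.60) lists have the highest medians, and on the right the cell cycle median of -1.34 lies among those of the blood cell lists.

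The second comparison sets normal liver against the SiO2 spleen. Genes of division were lower in liver: 35 of 48 were lower by 2-fold or more and 0 higher, where 17.0% of the 17359 genes measured were lower by that rule and 15.4% higher. Only 3 of 48 had a difference above 0, against 43.8% of all genes. The median difference was -1.34, against -0.14 for all genes. Ccnb2 had the lowest value at -2.11 ± 0.21, or 4.32-fold lower. Aurkb followed at -2.09 ± 0.21, and Cdc6 at -1.87 ± 0.21, Nusap1 at -1.79 ± 0.21 and Mki67 at -1.68 ± 0.20. Ccne2, not well above background in liver, was at least 3.15-fold lower.

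Every role had a median below 0 in liver relative to the SiO2 spleen. The medians were -1.20 for licensing and the helicase, -1.10 for nucleotides and the clamp, -1.04 for the G1 cyclins and Cdk2, -1.26 for mitotic cyclins and kinases, -1.06 for the spindle checkpoint, -1.39 for the spindle, -1.54 for the chromosome proteins and -0.92 for the transcription factors. All 9 spindle genes were at least 2-fold lower. The exceptions to the direction were Ccnd1 at 0.52 ± 0.20, Cdc45 at 0.03 ± 0.24 and Tyms at 0.00 ± 0.21. Cdc45 and Tyms lay within their technical errors, and their sign changed with the processing, as did that of the dim genes Cdk1 (-0.87 ± 0.31) and Cdc25c (-0.73 ± 0.34).

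Among the members, replication and mitotic genes were closer together here than between the spleens. The wider lists were not: their gap was -0.27 here and 0.27 between the spleens. The 9 replication genes had a median of -1.24 and the 24 mitotic genes one of -1.39 between liver and SiO2 spleen, and 0 mitotic genes lay above the highest replication gene, Mcm7 at -0.68. With normexp background correction the gap of -0.15 turned to 0.018. In the wider lists, 16 of 46 other replication genes were lower in liver by 2-fold or more and 1 higher (median -0.89), and 40 of 64 other mitotic genes were lower and 0 higher (median -1.16). The 28 inhibitors had a median of -0.65, with 8 at least 2-fold lower and 1 higher, and 13 other G1 regulators one of -0.47, with 3 lower.

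The 11 lists of blood and spleen genes also had medians below 0 in liver, and of their genes all but Rhag and Gcnt3 were well above background there. The median was -1.29 for B cell genes (9 of 12 at least 2-fold lower), -1.53 for T and NK cell genes (12 of 14), -1.23 for erythroid genes (13 of 21), -1.33 for granulocyte genes (10 of 15) and -1.44 for spleen regulators and stroma (7 of 8). It was -0.96 for fibroblast genes (5 of 11) and -0.18 for macrophage and dendritic cell genes (4 of 12), of which 6 were above 0. Their summed scaled intensities were 167.1 in the SiO2 spleen and 65.7 in liver for B cells, 45.5 and 16.8 for T and NK cells, and 18.3 and 6.72 for spleen regulators and stroma. The brightest probes weigh most in such a sum, and the sums of some lists were little lower in liver. Those of erythroid and plasma cell genes were 100.9 and 64.9 in the SiO2 spleen and 90.2 and 62.9 in liver. Their median differences were -1.23 and -1.24. The sum over the 48 genes of division was 127.8 in the SiO2 spleen, 178.7 in the SiO2-3TF-3C spleen and 59.9 in liver. Whether the division signal on the array labelled liver came from hepatocytes, from blood cells or from spleen RNA was not tested.

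The third pair, the SiO2-3TF-3C spleen against liver, shares both arrays with the comparisons above and adds no independent measurement. By the same rule 41 of 48 genes were higher after 3TF-3C and 0 lower, where 10.7% of 17213 genes were higher and 15.9% lower. In all, 46 of 48 were above 0, against 48.6% of all genes. The median difference was 1.78. Cdc6 was 9.33-fold higher (3.22 ± 0.21), Mki67 7.39-fold (2.88 ± 0.20) and Ccnb2 6.86-fold (2.78 ± 0.21). Ccnd1 was 1.77-fold lower (-0.83 ± 0.20). The replication genes had a median of 1.56 and the mitotic genes one of 2.07.

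Across the 3 arrays, 42 of 48 genes had their highest level in the SiO2-3TF-3C spleen and their lowest in liver. How many of all genes had this order was not counted. Of all genes measured, 34.4% were above 0 between the spleens and 43.8% were above 0 in liver relative to the SiO2 spleen. Ccnd2, Cdk1 (by its dim probe) and Pcna were highest in the SiO2 spleen and lowest in liver. Ccnd1 and Tyms were highest in liver and lowest in the SiO2-3TF-3C spleen, and Cdc45 was lowest in the SiO2 spleen. Neighbouring levels of the 2 spleens did not differ beyond 2 technical errors in 16 genes.

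Probes of the same gene limit how finely these values can be read. Of the 48 genes, 11 had several usable probes, 25 in all. Between the spleens their differences lay a median of 0.32 apart, at most 0.72 (Foxm1), and 1 of the 11 genes had probes of both signs. Between liver and SiO2 spleen the median was 0.40 and the largest 1.03 (Tpx2).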

How the data were processed

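The deposited scanner files hold spot intensities of 3 single-colour (Cy3) arrays. Per the file headers, intensities were background-subtracted with Feature Extraction 11.0.1.1 on array design 026655 (genome build mm9), whereas version 9.1 stands in the submitters' processing notes. Per the labels' protocols, RNA was isolated with a blood kit and depleted of globin RNA. The authors' deposited series table holds log2 values of 26049 probes (38 of the 48 genes). Each column had its highest correlation with the logged intensities of its own array (r from 0.993 to 0.996). The column medians were 5.91, 5.91 and 5.91 and the maximum was 16.58 in each, so the columns are not centred on 0, and the sources used here do not give how they were normalized.

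Control, non-uniform and outlier spots were left out (182, 283 and 469 of 43020 on the arrays of SiO2 spleen, SiO2-3TF-3C spleen and liver), spots of a probe were averaged, and each array's 75th percentile was subtracted (569, 515 and 390 as intensities). RefSeq symbols (GRCm38.p6, for names only) matched 27038 of 39112 probes (69.1%). Genes measured on 1 side have a bound, in which the dim side is set to the array's lowest level well above background (-6.04, -6.20 and -5.57) or to its own level if that is higher. Python 3.11.15 was used, and limma 3.58.1 for normexp. The choice of probe and the differences between arrays were tested on simulated data. The shifts set there were larger than any difference of the 48 genes between the spleens, and disagreeing probes were not simulated. The 48 genes and all lists were chosen with earlier results of these data known. All 48 are accounted for, with levels for at least 1 gene of each role and each gene past 2-fold between the spleens. From each other list up to 4 genes with the largest difference between the spleens are named, plus fixed anchors such as Cdkn1b, Trp53 and Tlx1. The alternatives were normexp (offset 50), quantile, median and housekeeping scaling, the authors' values, the mean over probes, 2 other filters on dim genes, a 1.5-fold rule and a wider replication group. Normexp used median spot signals because the files hold no mean signals, and that change, like keeping the marked spots, was chosen after seeing the data.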

Additional observations from a re-analysis of the deposited data

How the results depend on the processing

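Over all settings, the median of the 48 genes between the spleens ran from 0.52 to 0.66, and from 0.57 to 0.76 above the median of all genes. For liver minus SiO2 spleen it ran from -1.41 to -1.08, or -1.29 to -1.12 relative to all genes, and for SiO2-3TF-3C spleen minus liver from 1.52 to 1.95, or 1.69 to 1.91. Between the spleens 42 of the 48 genes were higher under every setting that gave them a value, 3 lower (Ccnd1, Ccnd2, Tyms) and 3 changed sign (Aurkb, Cdk1, Pcna), where the authors' table gives values for 38. The number of the 48 higher between the spleens was 8 with quantile normalization, which gave 5.40% of all genes higher. It was 26 by the 1.5-fold rule, by which 8.65% of all genes were higher and 9.36% lower. By that rule 1 of the 48 was lower than liver, against 27.5% of all genes. With normexp the 48 genes had a median of 1.52 against liver and of -1.08 for liver minus SiO2 spleen. The gap of mitotic over replication genes between the spleens, 0.25 as reported, was 0.15 with normexp and 0.17 with quantile normalization. With normexp it was 0.23 against liver, and 0.018 for liver minus SiO2 spleen, a change of sign. The cause was not tested.

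In the other lists, with the spleens compared, the median of the inhibitors changed sign with the authors' values (0.054) and quantile normalization (0.056), and that of other G1 regulators with the mean over probes (0.015). Other mitotic genes higher by 2-fold numbered 1 with the authors' values, 0 with normexp and 3 with marked spots kept. Those settings gave 5.37%, 3.36% and 5.27% of all genes higher. The 1.5-fold rule gave 25 of 65 other mitotic, 9 of 46 other replication, 2 of 13 G1 and 2 of 28 inhibitor genes higher. It gave 2 of 28 inhibitors lower, where 8.65% of all genes were higher and 9.36% lower. For liver minus SiO2 spleen it gave 32 of 46 other replication, 16 of 28 inhibitor and 5 of 13 G1 genes lower. It gave 2 of 46 other replication, 2 of 64 other mitotic and 1 of 13 G1 genes higher. Of all genes, 31.2% were lower and 23.9% higher by this rule. In that comparison normexp gave 19 other mitotic (median -0.63) and 9 other replication genes lower and 0 other replication genes higher. Of all genes it gave 9.74% lower and 11.95% higher. The authors' values gave 22 other mitotic genes lower, against 18.3% of all genes, and an inhibitor median of -0.91. The T cell gene Cd6 changed sign: SiO2-3TF-3C spleen minus liver was -1.16 with the authors' values and -0.058 with the mean over probes, and liver minus SiO2 spleen was 0.85 with the authors' values. No paired analysis was possible because each group has 1 array, and for the same reason no array could be left out. Dim probes such as those of Cdk1, Cdc25c and Cdc45 limit what the signal over background allows.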
